A study of Mus musculus with 54 samples.

Results

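The 48 genes described here are interferon-stimulated genes (ISGs), the genes that cells switch on when type I interferon reaches its receptor. They were listed by symbol, from the ISG15, IFIT, OAS, Mx, sensor, PARP and related families, out of 33280 genes counted in bulk RNA-seq of macrophages sorted from mouse brains. All 48 symbols were found in the 3 count tables, and all 48 reached 5 CPM (counts scaled by the library total) or more in at least 3 of the 54 libraries, so none was left out. The rule for the list uses no measured value, although earlier results of these data were known when it was made.

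Microglia (MG) of the brain parenchyma and CNS-associated macrophages from below the dura (subdural, sdCAMs), which lie in the leptomeninges and around vessels, were sorted from brain without choroid plexuses, in 18 groups of 3 libraries. Wild-type (WT, C57BL/6JCrl) and Ccr2 KO (Ccr2-/-) mice were either left untreated and given PBS, or given vehicle (CTL) or BLZ945 and injected with lipopolysaccharide (LPS) 8 weeks later. Per the paper, WT mice came from Charles River and Ccr2 KO mice from The Jackson Laboratory, so source and genotype cannot be told apart. BLZ945 inhibits the CSF1 receptor and depletes these macrophages, which then repopulate. Reporter mice with the genotype Ccr2CreERT2/CreERT2:R26tdT/tdT (Ccr2Cre below) all received BLZ945, then 3 tamoxifen doses of 2 mg (days 0, 2 and 4), and were injected with PBS or LPS 8 weeks after treatment. Their sdCAMs were sorted into tdTomato-positive (tdT+) and tdTomato-negative (tdT-) cells, where tdT+ marks descent from cells that expressed Ccr2 while tamoxifen acted. A tdT- cell may descend from a monocyte that escaped recombination, and both Ccr2 alleles of these mice carry the Cre insertion. All mice were killed 12 h after the injection. Ages are not given in the labels, and both sexes were used. The untreated mice had no vehicle gavage, so in WT and Ccr2-/- mice the effects of gavage and of LPS cannot be told apart. WT and Ccr2-/- libraries carry one batch number in the labels and reporter libraries another, so the reporter mice were compared only among themselves.

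Type I interferon binds the receptor IFNAR1/IFNAR2, the kinases JAK1 and TYK2 pass the signal on by phosphorylation, and a complex that holds STAT2 and IRF9 binds the interferon-stimulated response element (ISRE) of ISG promoters. The products of ISGs sense foreign nucleic acid, degrade RNA, block viral entry and assembly, or restrain the pathway itself. LPS binds Toll-like receptor 4 (TLR4), whose adaptor TRIF leads through kinases of the TBK1 family to IRF3 and interferon beta, so macrophages given LPS are known to express ISGs as a secondary response. Microglia are known to express ISGs in infection, injury and ageing.

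Promoter windows from RefSeq (assembly GRCm38.p6, 250 bases before to 50 after the annotated start, 300 bases in all) were found for 36 of the 48 members, which together had 44 windows. The ISRE was searched as GAAANNGAAA on either strand, which reads TTTCNNTTTC on the other. It was present in the windows of 17 of the 36 members (47.2%), against 1079 of 27025 genes with windows (3.99%). By window the shares were 43.2% of member windows and 3.44% of all 32851 windows. A match describes these letters only. The windows of 6 members are printed as examples: 5 that rose after LPS in WT and Ccr2-/- microglia, and Uba7, which did not. They do not stand for the list, and changes of members with and without an ISRE are given at the end of the results. Capitals mark ISRE matches, and the start site lies 50 bases from the 3′ end of each window.
Ifit1, chr19:34640639-34640938, plus strand: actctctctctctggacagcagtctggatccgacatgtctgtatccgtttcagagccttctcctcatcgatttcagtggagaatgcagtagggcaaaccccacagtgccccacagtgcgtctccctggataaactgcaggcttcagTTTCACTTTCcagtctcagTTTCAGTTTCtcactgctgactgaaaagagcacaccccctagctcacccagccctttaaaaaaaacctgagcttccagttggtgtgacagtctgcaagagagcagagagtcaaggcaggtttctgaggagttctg
Isg15, chr4:156200769-156201068, minus strand: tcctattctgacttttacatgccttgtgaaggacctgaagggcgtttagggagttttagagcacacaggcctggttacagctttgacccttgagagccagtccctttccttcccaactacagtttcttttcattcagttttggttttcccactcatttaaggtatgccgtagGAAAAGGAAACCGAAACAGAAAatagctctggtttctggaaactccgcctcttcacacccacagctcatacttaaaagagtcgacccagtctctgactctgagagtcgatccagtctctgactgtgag
Ifitm3, chr7:141010695-141010994, minus strand: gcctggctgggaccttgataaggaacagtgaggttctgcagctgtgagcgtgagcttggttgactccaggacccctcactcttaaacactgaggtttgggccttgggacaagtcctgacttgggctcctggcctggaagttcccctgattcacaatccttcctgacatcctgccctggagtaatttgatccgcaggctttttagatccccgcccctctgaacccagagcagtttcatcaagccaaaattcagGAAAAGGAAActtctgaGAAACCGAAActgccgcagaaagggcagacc
Ifi207, chr1:173741760-173742059, minus strand: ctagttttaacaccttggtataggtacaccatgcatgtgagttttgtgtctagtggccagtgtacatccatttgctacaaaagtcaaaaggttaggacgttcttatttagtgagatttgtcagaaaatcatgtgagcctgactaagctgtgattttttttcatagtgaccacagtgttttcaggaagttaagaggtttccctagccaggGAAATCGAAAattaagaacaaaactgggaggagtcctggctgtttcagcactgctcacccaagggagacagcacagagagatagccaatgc
Slfn5, chr11:82951852-82952151, plus strand: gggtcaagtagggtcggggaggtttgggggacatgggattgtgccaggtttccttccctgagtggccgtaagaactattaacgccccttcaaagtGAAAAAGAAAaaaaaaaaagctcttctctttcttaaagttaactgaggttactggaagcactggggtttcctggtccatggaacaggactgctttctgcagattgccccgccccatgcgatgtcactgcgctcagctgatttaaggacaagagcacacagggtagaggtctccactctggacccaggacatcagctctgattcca
Uba7, chr9:107975317-107975616, plus strand: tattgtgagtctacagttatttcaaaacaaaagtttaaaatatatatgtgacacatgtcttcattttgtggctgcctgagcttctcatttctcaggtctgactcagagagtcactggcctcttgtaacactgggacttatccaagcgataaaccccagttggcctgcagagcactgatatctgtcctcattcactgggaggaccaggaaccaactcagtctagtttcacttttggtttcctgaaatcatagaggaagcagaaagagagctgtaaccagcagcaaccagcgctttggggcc
The window of Ifit1 held 2 ISRE matches, that of Isg15 held 3 overlapping matches and that of Ifitm3 held 2, both after the start site. Ifi207 and Slfn5 had 1 match each and Uba7 had none. The authors' files give gene symbols without coordinates, so these coordinates belong to the RefSeq assembly alone.

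Library totals ranged from 1705930 to 11330781 counts, and the lowest belonged to WT sdCAMs. Levels below are CPM scaled by the trimmed mean of M values (TMM), which sets libraries on a common scale when a few genes take up many reads, and they are not corrected for gene length. The 6 microglial marker genes summed to at least 7155 scaled CPM in MG and to between 357 and 9985 in sdCAMs, and the 7 sdCAM markers summed to at most 28.83 in MG and at least 905 in sdCAMs. The 9985 belonged to an untreated WT sdCAM library, below the 25930 to 27390 of untreated WT MG. One sdCAM library stood apart in both lists. In tdT+ cells of mouse 5 (LPS), microglial markers summed to 9660, within the range of MG after LPS, and sdCAM markers to 905, against 3238 or more in every other sdCAM library. Counts of called members that rest on it are also given without it. Ccr2 was at 16.8 to 43 CPM in untreated WT sdCAMs and 2.46 to 5.59 in untreated Ccr2-/- sdCAMs, and at low levels of 3.87 to 10.6 and 5.1 to 7.1 CPM in the MG of the same mice. In CTL sdCAMs after LPS it was at 0 to 0.26 CPM in WT and 2.92 to 5.32 in Ccr2-/- mice, so there it was not lower in Ccr2-/- mice. The titles of the Ccr2-/- LPS libraries disagree about cell type with the characteristics and library names. The latter were used, and the marker genes followed them. Labels of 6 WT sdCAM libraries (untreated mice 9 and 14, CTL mice 1, 4 and 6, BLZ945 mouse 12) carry a correction mark that is not explained. For 2 LPS libraries of reporter mice, from tdT- cells (mouse 1) and tdT+ cells (mouse 7), the count columns carry index numbers that conflict with the labels, so results that use them are also given with these columns exchanged. Where bulk levels differ, fewer cells of a kind and less RNA per cell cannot be told apart.

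With TMM scaling, the mean level of the ISGs was lowest in resting MG and highest in sdCAMs after LPS. This module level is the mean over the 48 genes of log2(scaled CPM + 1). It was 3.88 ± 0.467 (SD, n = 3) in untreated WT MG, 5.09 ± 0.504 in CTL MG after LPS and 5.49 ± 0.0835 in repopulated (BLZ945) MG after LPS. In WT sdCAMs the corresponding levels were 5.53 ± 0.221, 6.80 ± 0.198 and 7.12 ± 0.136. Resting sdCAMs of WT mice therefore sat near the level that MG reached after LPS. In Ccr2-/- mice the MG levels were 3.64 ± 0.164, 5.54 ± 0.241 and 5.62 ± 0.123, and the sdCAM levels were 5.76 ± 0.38, 7.28 ± 0.248 and 6.85 ± 0.142. Reporter MG had 3.85 ± 0.708 after PBS and 5.25 ± 0.354 after LPS. The tdT- sdCAMs had 6.16 ± 0.595 and 6.99 ± 0.17, and the tdT+ sdCAMs 6.51 ± 0.764 and 6.43 ± 0.239. The TMM-scaled mean of tdT+ sdCAMs was thus not higher after LPS than after PBS, whereas with the conflicting columns exchanged it was 6.58 after LPS. The 3 tdT+ LPS libraries were at 6.538, 6.158 and 6.6 (mice 1, 5 and 7), and the lowest was the mouse 5 library that stood apart in its markers. Scaled to the library total, the tdT+ means were 6.538 after PBS and 6.716 after LPS, so the direction depends on these choices. With scaling to the library total, the WT sdCAM levels were 5.52 ± 0.059 untreated, 5.51 ± 0.413 in CTL after LPS and 6.86 ± 0.868 in BLZ945 mice after LPS, and CTL MG after LPS had 5.48 ± 0.496. The difference between WT CTL sdCAMs and MG after LPS was then 0.0263 instead of 1.71, so in WT mice the level of CTL sdCAMs after LPS relative to the other groups depends on the scaling. Reporter mice given PBS also differed among themselves. Mouse 174 had the highest level of 44 of the 48 genes in tdT+ sdCAMs and of 39 in tdT- sdCAMs, and mouse 175 the lowest of 44 and 43.

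**Figure D1:**
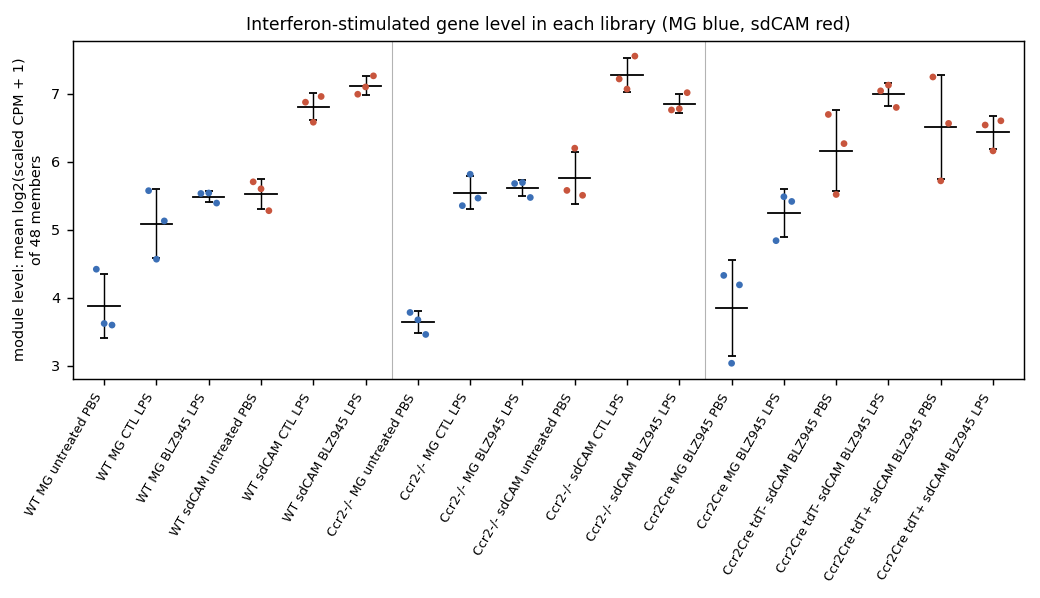
Module level (mean log2(scaled CPM + 1) of the 48 genes, vertical axis) of each library in the 18 groups (horizontal axis), with MG in blue, sdCAMs in red, and black bars for the mean ± SD of 3 libraries. Untreated WT and Ccr2-/- MG have means of 3.88 and 3.64, and both sdCAM groups at rest lie above them.

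The effect of LPS on resident MG was asked first in WT mice. Of the 48 ISGs, 22 rose and none fell in CTL MG after LPS, beside 9.08% of all genes tested that were called higher. A gene was called when its adjusted p was under 0.05 (edgeR quasi-likelihood test, Benjamini-Hochberg over all genes tested) and its log2 fold change exceeded 1 in size. The median log2 change of the members was 1.00, while that of all genes was near 0. The genes with the largest changes were DNA-binding PYHIN proteins, Zbp1, Ifitm3 and Slfn5. In 29 members all 3 LPS libraries lay above all 3 untreated ones, and in 1 they lay below, beside 21.9% and 22.4% of all genes tested. Without CTL mouse 1, whose library had the highest level of 41 of the 48 members among its group, 14 were called.

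Of the IFIT family, whose proteins bind foreign RNA ends, 1 of 4 rose in WT MG. Ifit1 was at 17.4, 4.48 and 2.96 scaled CPM in the 3 untreated libraries and 46.9, 9.88 and 37.8 in the 3 CTL LPS libraries (log2 1.94 ± 0.637, edgeR adjusted p = 0.0358). One LPS library lay between the untreated ones. Ifit3 was at 25.6, 9.36 and 11.4 and then 17.9, 5.75 and 17.4, with log2 -0.16 ± 0.45, edgeR adjusted p = 0.813. Ifit3 and Ifit3b, Oas1a and Oas1g, Ifi204 and Ifi207, Phf11b and Phf11d, and Slfn5 and Slfn8 are related copies whose reads the counting may have split, so their values are uncertain to that extent. Of the ISG15 system, 3 of 5 rose. Isg15, the ubiquitin-like modifier, went from 3.72, 2.34 and 2.52 to 19.98, 3.95 and 7.45 scaled CPM (log2 1.88 ± 0.504, edgeR adjusted p = 0.0145). Usp18, which removes ISG15 from its targets and restrains IFNAR signalling, went from 19.3, 9.36 and 8.71 to 54.8, 25.9 and 31.6 (log2 1.59 ± 0.324, edgeR adjusted p = 0.00336), with no overlap between groups. Uba7, the enzyme that activates ISG15 for conjugation, moved the other way, from 200.3, 205 and 168 to 145, 127 and 132, without overlap and without passing the fold limit (log2 -0.50 ± 0.157, edgeR adjusted p = 0.0307). The enzyme that activates ISG15 and ISG15 itself thus had fitted changes of opposite sign.

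Of the OAS family, whose active members make the oligoadenylates that switch on RNase L, 3 of 6 rose in WT MG, and of 8 sensors and regulators 5 rose. Oasl2 went from 26.5, 5.9 and 6.56 to 152, 53.4 and 61 scaled CPM (log2 2.79 ± 0.539, edgeR adjusted p = 0.00249), and every LPS library exceeded every untreated one. Zbp1, a sensor of Z-form nucleic acid that can start cell death, went from 5.53, 1.43 and 0.809 to 66.4, 21.2 and 42 (log2 4.09 ± 0.579, edgeR adjusted p = 0.00036). Ifi207 and Ifi204, DNA-binding proteins of the PYHIN family, rose by log2 4.29 ± 0.479 and 3.79 ± 0.337 (edgeR adjusted p = 6.47e-05 and 1.21e-05). Ifi207 was at 9.67, 3.15 and 2.96 at rest and 168, 57.7 and 80.6 after LPS, so it was nearly off at rest. The RNA sensor MDA5 (Ifih1) and the kinase PKR (Eif2ak2) passed the p threshold but not the fold limit, with log2 0.98 ± 0.231 and 0.71 ± 0.244. Adar, which edits adenosines in double-stranded RNA, rose slightly more (log2 1.02 ± 0.167, edgeR adjusted p = 0.000941).

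Among GTPases and restriction factors 4 of 10 rose in WT MG. Ifitm3, which blocks fusion of viruses with endosomal membranes, went from 12, 5.7 and 6.2 to 191, 37.4 and 102 scaled CPM (log2 3.8 ± 0.503, edgeR adjusted p = 0.000237), and Slfn5, a nuclear schlafen protein, from 5.63, 3.66 and 3.5 to 68, 22.9 and 44.1 (log2 3.41 ± 0.358, edgeR adjusted p = 4.22e-05). In both genes the lowest LPS library was several times above the highest untreated one. Rsad2 (viperin), Mx1, an antiviral GTPase, and Bst2 (tetherin), which holds budding virions, were not called, at log2 1.5 ± 0.56, 0.77 ± 0.501 and 0.81 ± 0.224. Of 3 members around the PARP enzymes 1 rose (Parp14, log2 1.19 ± 0.246), and of the other 12 members 5 rose. The Golgi chaperone gene Rtp4 went from 47.6, 17.7 and 22.8 to 218, 55.3 and 109.9 (log2 2.13 ± 0.457, edgeR adjusted p = 0.00464), and Helz2, a nuclear helicase and coactivator, from 2.98, 2.85 and 2.88 to 28.9, 11.3 and 12.8 (log2 2.61 ± 0.364, edgeR adjusted p = 0.000326). The untreated libraries of Helz2 were tightly grouped and all below the LPS libraries.

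**Figure D2:**
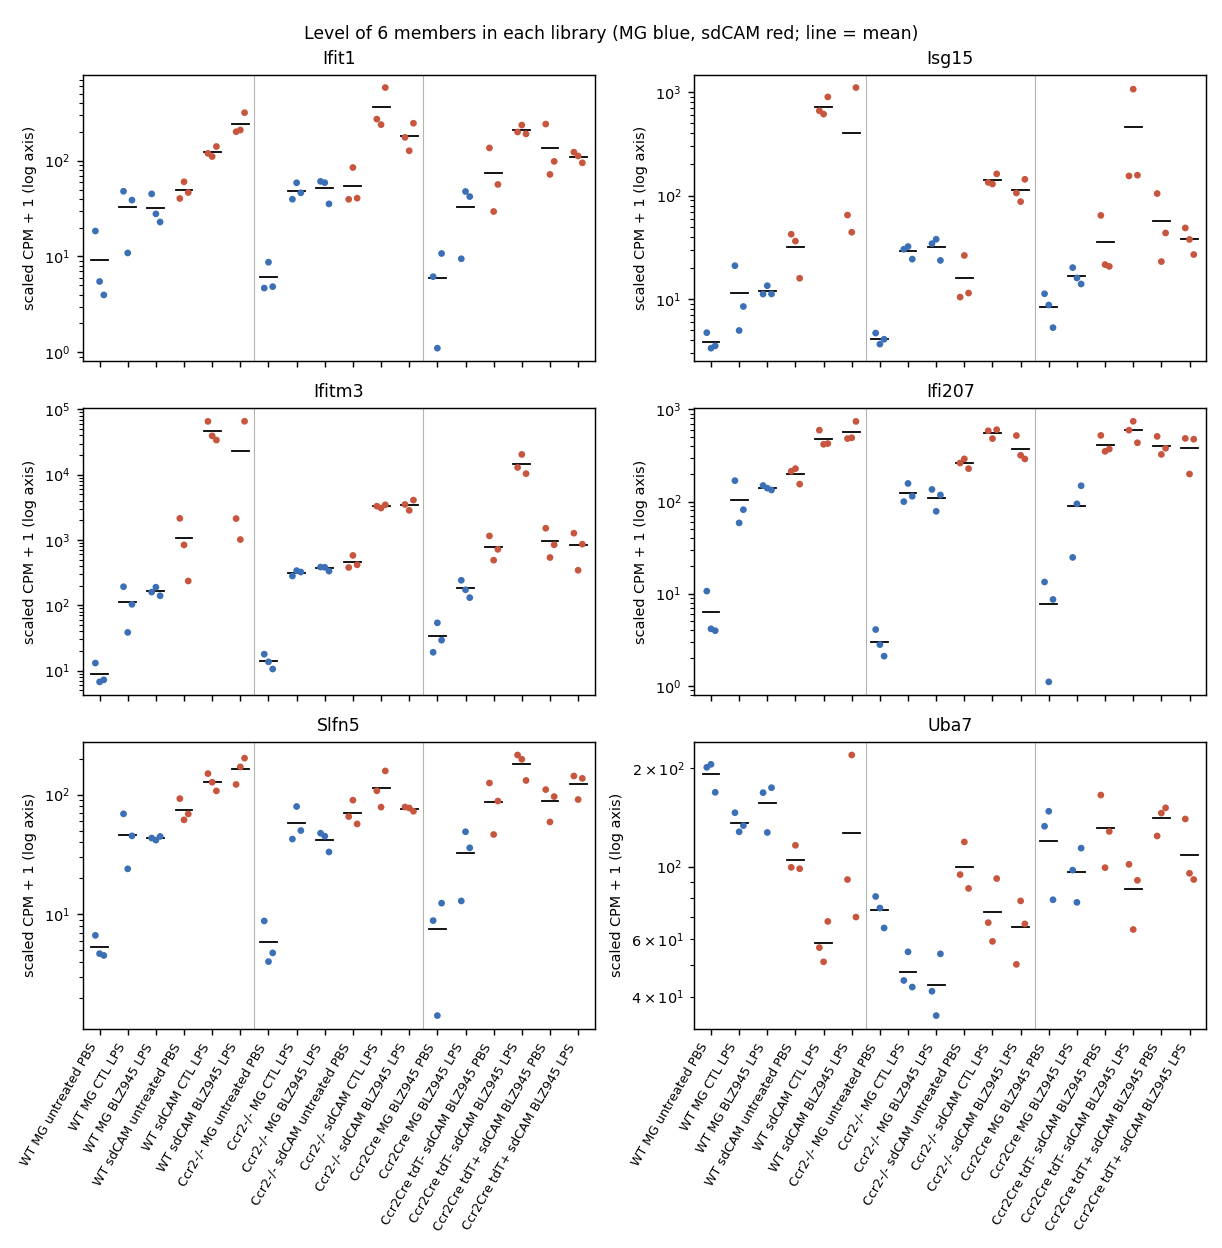
Scaled CPM + 1 (log axis) of 6 members in each library, by group, with MG in blue, sdCAMs in red and a line at the mean of 3. Ifi207 lies between 1.1 and 9.67 scaled CPM in untreated WT and Ccr2-/- MG and at 154 or more in every sdCAM library of these mice.

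**Figure D3:**
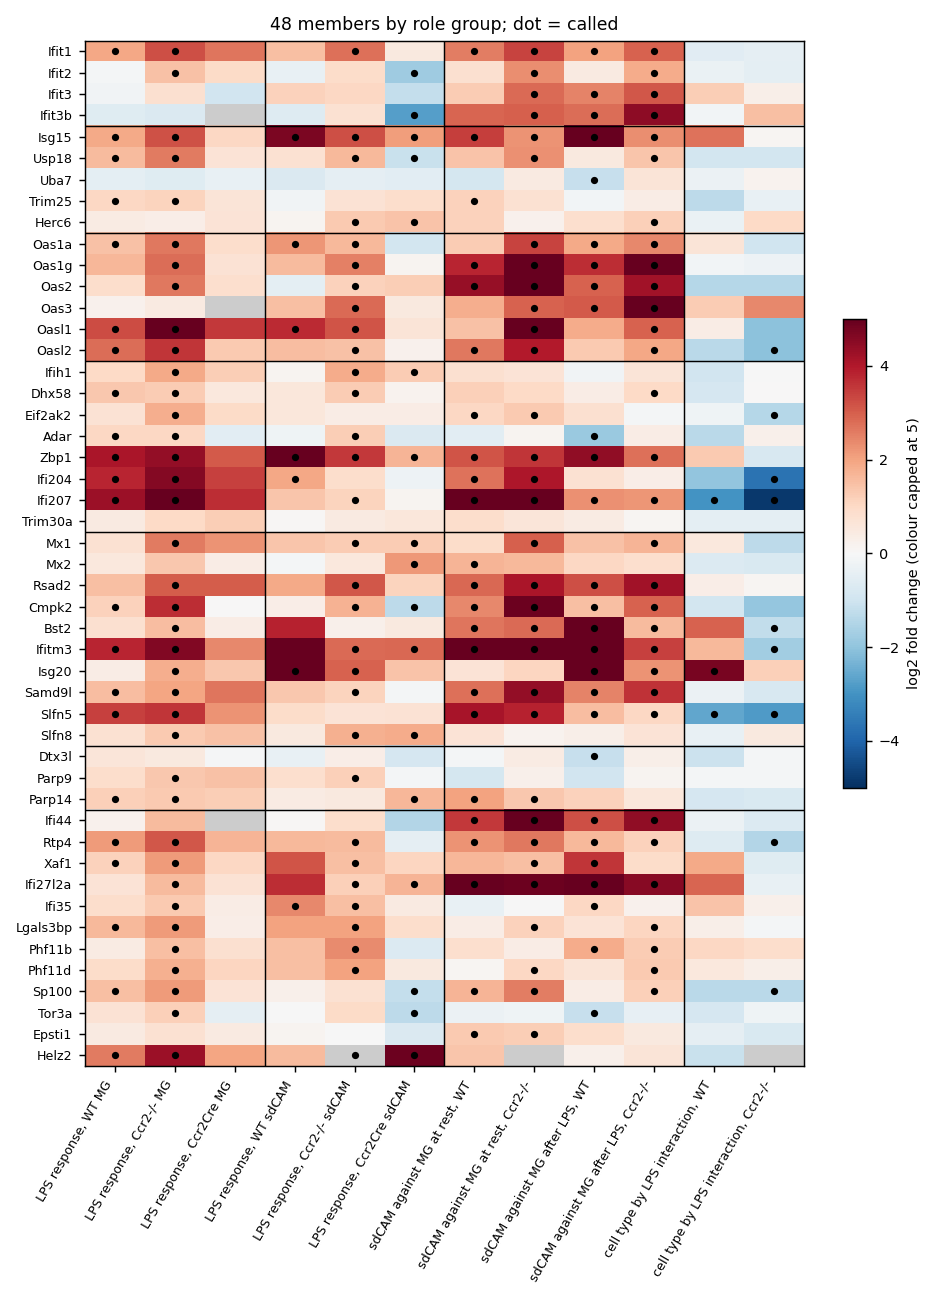
Fitted log2 fold changes of the 48 genes (rows, in role groups) in 12 comparisons (columns), with colour limited at 5, a dot where a gene was called, and grey where a gene was not tested or a group was at or near 0 counts so that no fitted fold is shown. The columns for LPS in WT and Ccr2-/- MG hold 22 and 38 dots.

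In MG of Ccr2-/- mice, 38 of the 48 ISGs rose after LPS and none fell, beside 10.5% of all genes called higher, and the median change of the members was 1.82. In 42 members every LPS library was above every untreated one, beside 26.9% of all genes tested. The 12 genes given singly in each LPS comparison (Ifit1, Ifit3, Isg15, Usp18, Mx1, Oasl2, Rsad2, Ifih1, Eif2ak2, Bst2, Zbp1 and Rtp4) all rose here except Ifit3. Ifit1 went from 3.68, 7.71 and 3.84 to 38.6, 57.8 and 45.2 scaled CPM (log2 3.22 ± 0.319, edgeR adjusted p = 4.62e-06), and Isg15 from 3.68, 2.66 and 3.07 to 29.2, 31.1 and 23.3 (log2 3.17 ± 0.269, edgeR adjusted p = 1.23e-06). Replicates were tight, and no LPS library came near an untreated one. Ifi207 went from 3.08, 1.8 and 1.1 to 98.8, 156 and 113 (log2 5.95 ± 0.342, edgeR adjusted p = 4.62e-08), the largest fitted change of a member in these cells. Ifitm3 went from 16.8, 12.6 and 9.55 to 279, 338 and 322 (log2 4.61 ± 0.201, edgeR adjusted p = 3.11e-09), and Zbp1 from 5.67, 2.23 and 2.31 to 56.2, 99.1 and 56.3 (log2 4.40 ± 0.349, edgeR adjusted p = 6.66e-07). These 3 genes were also among the most changed in WT MG. Usp18, Oasl2, Rsad2 and Rtp4 rose by log2 2.60 ± 0.307, 3.56 ± 0.373, 3.04 ± 0.339 and 3.09 ± 0.231, and Mx1, Ifih1, Eif2ak2 and Bst2 by 2.61 ± 0.602, 1.89 ± 0.242, 1.81 ± 0.245 and 1.55 ± 0.133. Ifit3 was at 15.8, 14.9 and 10.8 and 18.6, 32.6 and 20.7 scaled CPM (log2 0.81 ± 0.291), under the fold limit. Lgals3bp, a secreted galectin-binding glycoprotein, rose by log2 2.14 ± 0.147 (edgeR adjusted p = 1.85e-07) and Ifi204 by 4.58 ± 0.271. Uba7 was again lower without being called, at 80.02, 73.7 and 63.9 and 43.8, 53.9 and 41.8.

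By role, 2 of 4 IFIT genes, 3 of 5 of the ISG15 system, 5 of 6 OAS genes, 7 of 8 sensors, 9 of 10 GTPases and restriction factors, 2 of 3 around PARP enzymes and 10 of 12 others rose in Ccr2-/- MG. The larger number of calls than in WT MG is not shown to be a larger response. The test of the difference between genotypes (genotype by LPS interaction) called 0 members with edgeR and 0 with DESeq2, with 21 members at an unadjusted p under 0.05 and 0% of all genes called. The interaction was positive in sign for all 12 of the genes given singly, from 0.34 in Zbp1 to 1.88 in Mx1. At rest, 4 members were lower in Ccr2-/- than in WT MG and none was higher, beside 4.26% of all genes called lower. Uba7 was at 80.02, 73.7 and 63.9 scaled CPM against 200.3, 205 and 168 in WT (log2 -1.41 ± 0.174, edgeR adjusted p = 5.23e-05), with groups far apart. The nucleotide kinase gene Cmpk2, Helz2 and Mx1 were lower by log2 -1.78 ± 0.48, -2.51 ± 0.707 and -1.96 ± 0.642. The number called was 2 without WT mouse 9 or without either of 2 Ccr2-/- mice (3m and 5f). The labels do not say whether the genotypes were littermates, and the source of the mice went with genotype.

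In WT sdCAMs, 7 of the 48 ISGs rose after LPS and none fell, beside 3.7% of all genes called higher. The median change of the members was 1.24, above that of WT MG, while the spread between libraries was larger (common biological coefficient of variation 0.7, against 0.257 in WT MG). The 7 were Zbp1, Isg20, Isg15, Oasl1, Ifi35, Oas1a and Ifi204. DESeq2 called 16, all higher, beside 946 of 10504 genes called higher. Zbp1 was at 8.18, 27.6 and 31.9 scaled CPM at rest and 672, 746 and 1264 after LPS (log2 5.47 ± 0.855, edgeR adjusted p = 0.00686). Isg20, an RNA exonuclease, was at 12.8, 3.24 and 0.437 and 109, 177 and 274 (log2 5.18 ± 1.06, edgeR adjusted p = 0.0198), and Isg15 at 41.3, 35.3 and 14.9 and 660.3, 613 and 899.5 (log2 4.69 ± 1.2, edgeR adjusted p = 0.0424). The groups were widely separated in these 3 genes. Ifitm3 was higher still, at 65520, 39320 and 33880 after LPS against 2140, 838 and 234 at rest, yet it was not called (log2 5.52 ± 1.92, edgeR adjusted p = 0.104). Bst2 was at 513, 259.5 and 173 and 1948, 7104 and 3647 (log2 3.86 ± 1.17, edgeR adjusted p = 0.0719), also without overlap and without a call. Oasl1, Ifi35, Oas1a and Ifi204 rose by log2 3.73 ± 0.612, 2.39 ± 0.513, 2.21 ± 0.506 and 1.92 ± 0.502. The rest of the genes given singly were not called: Ifit1, Ifit3, Usp18, Mx1 and Oasl2 had log2 1.49 ± 0.414, 1.15 ± 0.521, 0.78 ± 0.685, 1.37 ± 0.566 and 1.53 ± 0.478, and Rsad2, Ifih1, Eif2ak2 and Rtp4 had 1.91 ± 0.616, 0.13 ± 0.442, 0.58 ± 0.394 and 1.61 ± 0.563.

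The size of these WT sdCAM changes depended on how libraries were scaled. Saa3 alone took 23 to 35.8% of the counts of the 3 CTL LPS libraries, and TMM factors there were 0.344 to 0.494. With scaling to the library total the median of all genes moved from -0.08 to -1.55 and that of the members to -0.19. Then 6 members were higher and 2 lower, beside 2.96% and 24.5% of all genes. Under that scaling Zbp1, Isg20, Isg15, Ifitm3 and Oasl1 were still at log2 3.96, 3.97, 3.34, 4.19 and 2.41, whereas Ifit1 and Oasl2 were at 0.03 and 0.05. Marker genes of neutrophils moved with this comparison. The sum of 5 (S100a8, S100a9, Ly6g, Retnlg and Csf3r) was 108.7 to 231.2 scaled CPM at rest and 431.2 to 3353 after LPS, with S100a8 at 0 to 34.47 and 358.9 to 3249 and with Ly6g and Retnlg at 0 throughout. Their part in the result was not tested. All 3 CTL LPS libraries and 2 of the untreated ones carry the unexplained mark. With the marked libraries alone 12 members were called, and with the mark as a covariate 14, all higher. Calls over all genes grew as well, to 863 of 12854 and 715 of 10504 called higher, against 389 of 10504 in the main fit. Leaving out any of the 6 libraries left 2 to 4 calls, fewest (2) without untreated mouse 14 or CTL mouse 6.

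In Ccr2-/- sdCAMs, 31 of 48 ISGs rose after LPS and none fell, beside 10.9% of all genes called higher, with a median change of 1.26. In 35 members every LPS library was above every untreated one, beside 24.1% of all genes tested. All 6 OAS genes, 3 of 5 of the ISG15 system, 5 of 8 sensors, 7 of 10 GTPases and restriction factors and 8 of 12 others rose. Among IFIT genes 1 of 4 rose. Zbp1 went from 43.6, 45.1 and 32.5 to 526, 447 and 447 scaled CPM (log2 3.55 ± 0.192, edgeR adjusted p = 7.4e-08), and Ifitm3 from 377, 579 and 415 to 3295, 3083 and 3453 (log2 2.84 ± 0.184, edgeR adjusted p = 2.93e-07). Rsad2 went from 50.4, 78.6 and 40.6 to 435, 444 and 598 (log2 3.12 ± 0.283, edgeR adjusted p = 4.85e-06). Replicates of these genes agreed closely, unlike those of WT sdCAMs. Ifit1, Isg15, Usp18 and Oasl2 rose by log2 2.74 ± 0.401, 3.22 ± 0.359, 1.64 ± 0.331 and 1.47 ± 0.242, and Mx1, Ifih1 and Rtp4 by 1.26 ± 0.32, 1.84 ± 0.311 and 1.57 ± 0.26. Phf11b and Lgals3bp rose by 2.35 ± 0.201 and 2.03 ± 0.153. Bst2, Eif2ak2 and Ifit3 were not called. Bst2 was high already at rest, at 495, 681 and 500.1 against 674, 628 and 728 after LPS (log2 0.27 ± 0.187, edgeR adjusted p = 0.316). Eif2ak2 had log2 0.37 ± 0.307 and Ifit3 1.05 ± 0.389. Helz2 had no count in any of the 3 untreated libraries and was at 14.1, 4.63 and 27.7 scaled CPM after LPS. By mean CPM this was at least 41.8-fold higher against a floor of 3 counts per library. The neutrophil markers summed to 104.5 to 131.6 at rest and 312.3 to 366.6 after LPS, with Ly6g and Retnlg at 0, and their part was not tested.

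Between genotypes, resting sdCAMs differed in 6 members: 5 were higher in Ccr2-/- mice (3.73% of all genes were called higher) and Helz2 was lower (5.78% were called lower). Oasl1 was at 16.2, 49.9 and 20.4 scaled CPM in Ccr2-/- and 11.3, 2.43 and 5.25 in WT sdCAMs (log2 2.2 ± 0.511, edgeR adjusted p = 0.0134), without overlap. Oas1a, Parp9, Ifi204 and Lgals3bp were higher by log2 1.65 ± 0.439, 1.31 ± 0.364, 1.21 ± 0.358 and 1.14 ± 0.32. Helz2 was at 2.73, 17.8 and 1.31 scaled CPM in WT mice 9, 14 and 15 and had no count in Ccr2-/- sdCAMs. By mean CPM this was at least 20.1-fold lower, but the WT mean rests mostly on mouse 14, and no such bound holds for each WT library. Markers of other cells moved with this comparison. The 4 monocyte markers (Ly6c2, Ccr2, Plac8 and Chil3, of which Ccr2 is the deleted gene) summed to 28.79 to 52.16 scaled CPM in WT and 2.327 to 5.205 in Ccr2-/- sdCAMs, with Ccr2 alone at 17.03 to 50.99 and 2.327 to 5.205 and Chil3 at 0 throughout. The microglial markers summed to 4654 to 9985 and 3305 to 4993. Their part was not tested. WT mice 9 and 14 carry the unexplained mark and no Ccr2-/- library does, so mark and genotype cannot be fully told apart. With unmarked libraries alone, which leaves WT mouse 15 and was chosen after seeing the data, the member median was 0.59 instead of 0.41. The median of all genes was then 0.17 instead of -0.01. Leaving out Ccr2-/- mouse 1m, 3m or 5f left 3, 1 and 3 calls, and leaving out WT mouse 14 left 2. With library-total scaling 2 were called, 1 in each direction, beside 0.445% of all genes higher and 3.85% lower. The response to LPS was not shown to differ between genotypes in sdCAMs. The interaction called 0 members with edgeR (0% of all genes), and 11 had an unadjusted p under 0.05. DESeq2 called 2, 1 in each direction, beside 65 of 13258 genes called higher and 177 called lower.

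At rest, sdCAMs held more ISG transcript than MG in both genotypes. In WT mice 23 of 48 members were higher in sdCAMs and none was lower, beside 11.9% of all genes called higher, and in Ccr2-/- mice 32 were higher and none was lower, beside 8.53%. In Ccr2-/- cells all 4 IFIT and all 6 OAS genes were among them. Several of the gaps were wide. Ifitm3 was at 12, 5.7 and 6.2 scaled CPM in WT MG and 2140, 838 and 234 in WT sdCAMs (log2 7.12 ± 1.41, edgeR adjusted p = 0.00264), and at 16.8, 12.6 and 9.55 and 377, 579 and 415 in the Ccr2-/- cells (log2 5.13 ± 0.222, edgeR adjusted p = 5.32e-12). Ifi207 was at 212, 227 and 154 in WT and 261, 289.5 and 227 in Ccr2-/- sdCAMs, far above the MG values given above (log2 5.26 ± 0.549 and 7.00 ± 0.357). Ifi27l2a, of the Ifi27 family, was at 10.3, 5.5 and 5.75 in WT MG and 2483, 530.4 and 98.8 in WT sdCAMs, whose libraries differed widely among themselves. Slfn5 and Oas2 were higher by log2 4.12 ± 0.415 and 4.34 ± 0.768 in WT and by 3.85 ± 0.362 and 5.63 ± 0.486 in Ccr2-/- cells. Of the genes given singly, 8 were called in WT, from log2 0.79 (Ifih1, not called) to 3.45 (Isg15) over all 12, and 11 in Ccr2-/- cells, from 0.67 (Ifih1, not called) to 4.10 (Rsad2). The WT count was 12 without the MG library of untreated mouse 14 and 14 without that of mouse 15. The sdCAM libraries of WT mice 9 and 14 carry the unexplained mark. With the unmarked sdCAM library of mouse 15 alone, chosen after seeing the data, the member median was 1.13 instead of 1.43. Same-numbered MG and sdCAM libraries came from the same animal but were fitted as independent, here and in the tests of sdCAMs against MG below. With the mouse as a replicate block, 20 members were higher at rest in WT and 31 in Ccr2-/- sdCAMs, beside 940 of 13136 and 988 of 12890 genes.

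After LPS, 23 members were higher and 4 lower in WT sdCAMs than in WT MG, where 19.1% and 16.3% of all genes were called higher and lower. The 4 lower were Adar, Uba7, Tor3a and Dtx3l (log2 -1.84, -1.16, -1.15 and -1.16). Isg15 was at 19.98, 3.95 and 7.45 scaled CPM in MG and 660.3, 613 and 899.5 in sdCAMs (log2 6.16 ± 1.05, edgeR adjusted p = 0.000532), and Bst2 at 113, 66.5 and 87.2 and 1948, 7104 and 3647 (log2 5.62 ± 0.914, edgeR adjusted p = 0.000371). The gaps were wide and the groups did not overlap. Scaling to the library total moved the median of all genes from -0.12 to -1.92 and gave 7 members higher (14.6%) and 11 lower (22.9%), beside 9.05% and 51.7% of all genes, so the direction of many genes in this comparison follows the scaling. Rtp4, called higher with TMM scaling (log2 1.61 ± 0.523), was then at -0.13. In Ccr2-/- cells 31 members were higher and none lower, beside 9.29% of all genes called higher. Oas1g, Rsad2 and Ifi27l2a led, at log2 5.02 ± 0.425, 4.21 ± 0.334 and 4.54 ± 0.352.

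The test of whether LPS changed a gene differently in sdCAMs and MG (cell type by LPS interaction) called 9 members in Ccr2-/- cells, all with the smaller change in sdCAMs, beside 4% of all genes called lower in this test. They were Ifi207, Ifi204, Ifitm3, Slfn5, Bst2, Oasl2, Rtp4, Sp100, a nuclear body protein gene, and Eif2ak2. Ifi207 rose from 3.08, 1.8 and 1.1 to 98.8, 156 and 113 scaled CPM in MG and from 261, 289.5 and 227 to 586, 481 and 602 in sdCAMs (difference of the changes log2 -4.81 ± 0.419, edgeR adjusted p = 6.48e-07). Ifi204 was at 15.1, 10.5 and 7.57 and 212, 338 and 236 in MG, and at 186, 226 and 135 and 341, 303 and 349 in sdCAMs (log2 -3.69 ± 0.342, edgeR adjusted p = 1.32e-06). Slfn5 was at 64.4, 88.8 and 55.8 and 106, 77.5 and 157 in sdCAMs, where it began about where MG ended (41.4, 78.5 and 49), with a difference of -2.83 ± 0.464. All 9 were higher in sdCAMs than in MG at rest. In WT cells 3 members were called, beside 1.32% of all genes called in either direction: Ifi207 (-2.98 ± 0.662) and Slfn5 (-2.58 ± 0.526) with the smaller change in sdCAMs, and Isg20 (4.73 ± 1.05) with the larger. DESeq2 called 5 in WT, 2 in the positive and 3 in the negative direction, beside 498 and 355 of 13136 genes. Library-total scaling called 13 (1 in the positive and 12 in the negative direction, beside 0.723% and 19.9% of all genes, whose median was -1.70), and leaving out 1 library gave 0 to 3. The count was 0 without the MG libraries of CTL mouse 1, CTL mouse 6, untreated mouse 14 or untreated mouse 15 or the sdCAM library of CTL mouse 6, and 1 without the sdCAM library of CTL mouse 4 or untreated mouse 14.

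**Figure D4:**
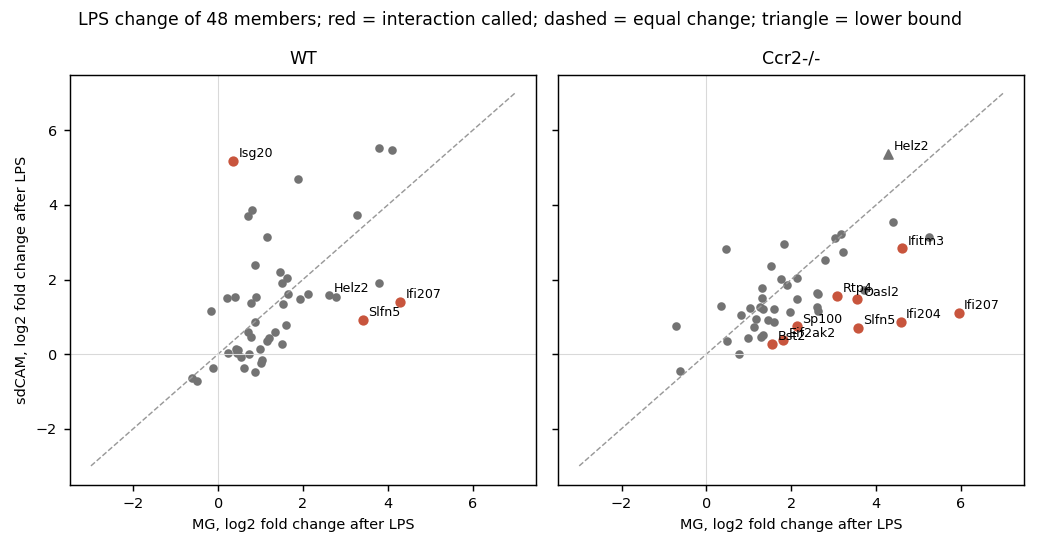
Log2 fold change after LPS in sdCAMs (vertical axis) against MG (horizontal axis) for the 48 genes in WT (left) and Ccr2-/- mice (right), with genes called by the interaction in red, a dashed line at equal change, and a triangle for Helz2 at its lower bound of 5.38. The 9 red genes of Ccr2-/- mice lie below the dashed line.

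Whether repopulation altered the ISG level after LPS was asked by comparing BLZ945 with CTL mice, all given LPS. No member was called in any of the 4 populations with edgeR. In WT MG 7 members had an unadjusted p under 0.05 and DESeq2 called 0 (0.0763% of all genes were called by edgeR). In WT sdCAMs the numbers were 8 and 0 (0% of all genes), in Ccr2-/- MG 8 and 0 (0.0173%), and in Ccr2-/- sdCAMs 15 and 4, all 4 lower (0%). These percentages are of edgeR calls, and DESeq2 called 47 of 11941 genes lower in Ccr2-/- sdCAMs. Ifit1 was at 46.9, 9.88 and 37.8 scaled CPM in CTL and 44, 26.9 and 21.9 in repopulated WT MG, and Isg15 at 19.98, 3.95 and 7.45 and 10.2, 12.4 and 10.2. The groups overlapped in both genes. Over the 12 genes given singly, the fitted log2 differences in WT MG ran from -0.27 (Ifih1) to 1.08 (Rsad2) and in Ccr2-/- MG from -0.57 (Eif2ak2) to 0.64 (Rsad2). Without CTL mouse 1, 1 member was called in WT MG.

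The sdCAMs showed more scatter in this comparison. In repopulated WT sdCAMs Ifitm3 was at 2124, 1014 and 65760 scaled CPM in mice 8, 11 and 12, and Isg15 at 63.8, 43.2 and 1108. Mouse 12, the marked library of the group, lay above all 3 CTL libraries in both genes (65520, 39320 and 33880 for Ifitm3 and 660.3, 613 and 899.5 for Isg15), and mice 8 and 11 lay far below them. Bst2 was at 341, 332 and 4175, with mice 8 and 11 again low. Most members went the other way: 36 of 48 had a positive fitted difference, with a median of 0.39 beside 0.07 for all genes. Ifit1, for one, was at 118, 109.5 and 140 in CTL and 200, 208 and 316 in repopulated WT sdCAMs, without overlap. The fit without mouse 12 called 5 members, all lower, while the member median was 0.53. The share of all genes called in that fit is not given here. Library-total scaling called 1 member higher, with a median of all genes of 1.41 and 1.68% of them called higher. The 2 lower libraries are the unmarked ones, so mark and level moved together in this group. With the mark as a covariate 0 members were called (1 at an unadjusted p under 0.05, median 0.54), and with marked libraries alone, which leaves mouse 12 against the 3 CTL mice, 0 were called (1 at an unadjusted p under 0.05, median 0.29). Mouse 12 also differed from mice 8 and 11 in neutrophil markers (1097 against 214.2 and 202.1 scaled CPM), in sdCAM markers (14450 against 5343 and 3238) and in Saa3, which took 21% of its counts against 2.39% and 1.79%. The part of these was not tested. In Ccr2-/- sdCAMs the median member difference was -0.41, and 15 members had all BLZ945 libraries below all CTL libraries while none had them above, beside 6.39% of all genes with all BLZ945 libraries below. Rsad2 was at 435, 444 and 598 in CTL and 168, 222 and 302 in BLZ945 sdCAMs (log2 -1.12 ± 0.263, edgeR adjusted p = 0.289), Oas2 had log2 -1.11 ± 0.211, edgeR adjusted p = 0.164, and Samd9l had log2 -1.06 ± 0.183, edgeR adjusted p = 0.164. None passed the threshold. Ifitm3 was at 3295, 3083 and 3453 and 3493, 2840 and 4077 in the same libraries and overlapped.

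In the reporter mice, all repopulated, LPS was compared with PBS. In MG 0 of the 46 members tested were called with edgeR, beside 0.662% of all genes called higher, and 7 had an unadjusted p under 0.05. DESeq2 called 6 members, all higher, beside 450 of 10882 genes called higher. Ifit3b and Ifi44 had too few counts to be tested. The median member change was 0.99, while the coefficient of variation was 0.81. Ifi204 had log2 3.40 ± 0.605, edgeR adjusted p = 0.0529 and Ifitm3 log2 2.40 ± 0.535, edgeR adjusted p = 0.0883. Ifitm3 was at 18, 52.8 and 28.1 scaled CPM after PBS and 240.2, 172 and 129.8 after LPS, without overlap. Ifit1 was at 5.16, 0.103 and 9.74 and 8.47, 46.7 and 41.2, with PBS mouse 175 near 0. Without that mouse 3 members were called. Oas3 and Ifi44, at or below 1 count in each PBS library, were at least 13.3-fold and at least 20.4-fold higher after LPS by mean CPM against the floor of 3 counts, although one LPS library of Ifi44 held no count.

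Counts of tdT+ and tdT- sdCAMs of each reporter mouse were summed to give 1 value per animal. In these sums 11 members rose and 6 fell after LPS, with a median member change of 0.45. As shares of the members these were 22.9% and 12.5%, beside 14.5% of all genes called higher and 10.6% called lower, so the share that fell was near that of all genes. Ifitm3 went from 1254, 494 and 735 scaled CPM after PBS (mice 174, 175 and 177) to 7098, 6936 and 4303 after LPS (mice 1, 5 and 7; log2 2.89 ± 0.431, edgeR adjusted p = 0.00176), and Helz2 from 0.918, 0 and 2.48 to 36.6, 19.7 and 47.6 (log2 4.92 ± 1.08, edgeR adjusted p = 0.00967). Mx2, Parp14 and Slfn8 rose by log2 2.17 ± 0.455, 1.66 ± 0.369 and 1.87 ± 0.51, and Isg15, Mx1, Ifih1 and Zbp1 by 2.09 ± 0.686, 1.25 ± 0.411, 1.28 ± 0.359 and 1.68 ± 0.481. Ifit3b fell from 83.2, 22.3 and 49.2 to 5.58, 12.1 and 5.11 (log2 -2.74 ± 0.559, edgeR adjusted p = 0.00695), and Ifit2 from 188, 62 and 139.6 to 26.3, 60.3 and 26.7 (log2 -1.77 ± 0.469, edgeR adjusted p = 0.0214). Cmpk2, Tor3a, Sp100 and Usp18 fell by log2 1.31 ± 0.373, 1.29 ± 0.333, 1.21 ± 0.309 and 1.13 ± 0.354. No OAS gene was called. Exchanging the conflicting columns left 4 members higher and 3 lower, beside 1210 and 985 of 12524 genes. The members were then called no more often than genes as a whole. The split also changed with the mouse left out, for which counts over all genes are not given. It was 4 higher and 3 lower without LPS mouse 1, 6 and 2 without LPS mouse 7, 13 and 1 without PBS mouse 174, 3 and 9 without PBS mouse 175, and 5 and 1 without PBS mouse 177. With library-total scaling 7 were higher and 9 lower, beside 11.8% and 14.8% of all genes. Without the tdT+ library of LPS mouse 5, which stood apart in its markers, 11 rose and 3 fell, beside 1798 and 1274 of 12144 genes. Markers of other cells moved with LPS in both fractions. The monocyte markers, mostly Ccr2, summed to 142.4 to 287.4 in tdT- and 229.9 to 285.7 in tdT+ cells after PBS and to 9.335 to 79.06 and 9.861 to 27.29 after LPS. The neutrophil markers summed to 123.4 to 191.4 and 111 to 134.9 after PBS and to 680.5 to 2362 and 204.3 to 217.8 after LPS. Their part was not tested.

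The tdT+ and tdT- sdCAMs were compared within each injection, with the 2 libraries of a mouse fitted as independent. With the mouse as a replicate block, 0 members were called after PBS and 8 after LPS, all lower in tdT+ cells, beside 838 of 12708 genes called lower. After PBS 0 members were called with edgeR, 3 had an unadjusted p under 0.05 and DESeq2 called 1 (0.0236% of all genes were called). Mx1 was at 23.6, 10.3 and 17.4 scaled CPM in tdT- and 96, 28.4 and 34.8 in tdT+ sdCAMs (log2 1.62 ± 0.489, edgeR adjusted p = 0.703), higher in tdT+ cells of all 3 mice. After LPS 7 members were lower in tdT+ cells and none was higher, beside 6.9% of all genes called lower. Ifi27l2a was at 3011, 2573 and 3001 in tdT- and 224, 38.7 and 127 in tdT+ cells (log2 -4.46 ± 0.671, edgeR adjusted p = 0.000376), and Ifitm3 at 12890, 20430 and 10370 and 1269, 342 and 861 (log2 -4.14 ± 0.573, edgeR adjusted p = 0.000177). Isg15 was at 154, 1069 and 156 and 47.6, 36.6 and 25.9 (log2 -3.65 ± 0.796, edgeR adjusted p = 0.00741). No tdT+ library reached the lowest tdT- library in any of the 3. The tdT+ library of mouse 5, with microglial markers at 9660 and sdCAM markers at 905, was the lowest for Ifi27l2a and Ifitm3, and without it 5 members were called, all lower. Isg20, Bst2, Xaf1, a binding partner of the apoptosis inhibitor XIAP, and Parp14 were lower by log2 -3.22 ± 0.86, -2.86 ± 0.619, -2.38 ± 0.467 and -1.34 ± 0.39. IFIT and OAS genes were not called here, with Ifit1 at 198, 234 and 189 and 122, 111 and 94, and Oasl2 at 481, 303 and 256 and 380, 166 and 382.

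The calls were lost on exchanging 2 columns, and their number and direction changed with the scaling. As named, the library number, mouse and population of both columns match the labels, and only the index number does not. Saa3 as named took 14.5, 28.3 and 17.8% of counts in tdT- and 2.14, 0.68 and 2.74% in tdT+ cells (mice 1, 5 and 7). Whether these columns were exchanged was not tested. With the 2 conflicting columns exchanged 0 members were called, and Ifitm3, Ifi27l2a and Isg15 were at log2 -1.13, -0.80 and -2.40. With library-total scaling the median of all genes moved from 0.11 to 1.14, and 10 members were higher (20.8%) and 5 lower (10.4%), beside 26.3% and 3.79% of all genes. Ifitm3, Ifi27l2a and Isg15 were then at -3.07, -3.48 and -2.40. The neutrophil markers given above differed between tdT- and tdT+ cells after LPS, with S100a8 at 570.9 to 2233 and 8.312 to 47.25 and Ly6g and Retnlg at 0, and T and NK cell markers reached 171.3 in one tdT- library. Their part was not tested.

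**Figure D5:**
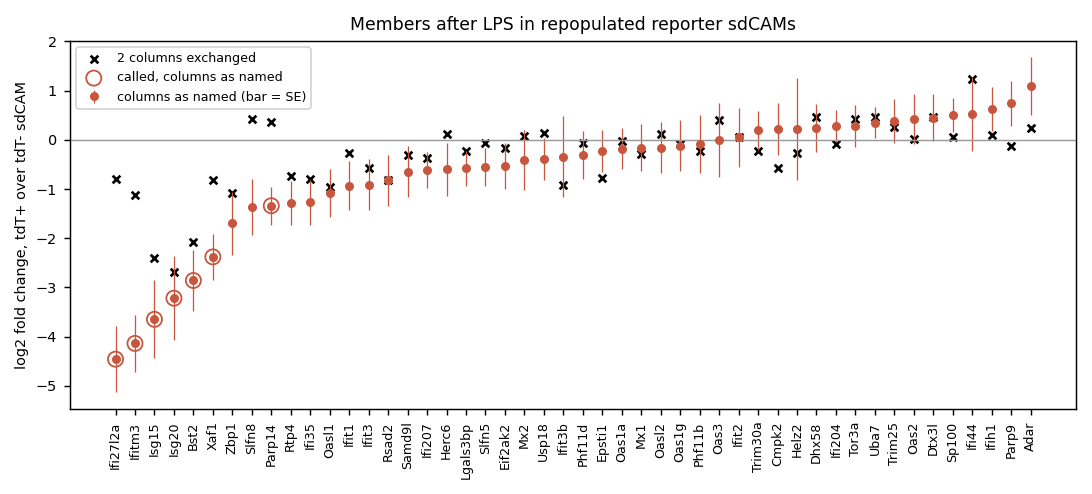
Log2 fold change of tdT+ over tdT- sdCAMs after LPS (vertical axis) for the 48 genes in order of size (horizontal axis), with bars for the SE, rings for called genes and crosses for the values with the 2 conflicting columns exchanged. The 7 ringed genes lie between -4.46 and -1.34, and none remains called after the exchange.

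Genes that carry the signal to ISGs were looked at in a list of 26, from TLR4 and its adaptors to interferons, receptors, kinases, transcription factors and SOCS inhibitors. In 4 (Ifnb1, Ifna2, Ifna4 and Ifng) too few counts were present for a test at 12 h. Of the other 22, the numbers that rose after LPS in MG were 6 in WT, 8 in Ccr2-/- and 1 in reporter mice, and those in sdCAMs were 3, 7 and 2. None fell in MG of any line or in WT sdCAMs, 2 fell in Ccr2-/- sdCAMs and 4 in reporter sdCAMs. The shares of all genes called higher were, in the same order, 9.08%, 10.5% and 0.662% in MG and 3.7%, 10.9% and 14.5% in sdCAMs, and 10.6% were called lower in both Ccr2-/- and reporter sdCAMs, so the 2 that rose in reporter sdCAMs and the 2 that fell in Ccr2-/- sdCAMs, 9.09% of 22 each, were no more than the background share. Irf7, the regulator that amplifies interferon production, went from 17.1, 14.4 and 9.34 to 123, 42.1 and 64.4 scaled CPM in WT MG (log2 2.5 ± 0.351, edgeR adjusted p = 0.000342) and from 85.3, 133 and 59.2 to 890.4, 932 and 1098 in Ccr2-/- sdCAMs (log2 3.39 ± 0.253, edgeR adjusted p = 9.08e-07). It also rose in Ccr2-/- MG and WT sdCAMs (log2 3.73 and 2.57). Stat2, of the ISRE-binding complex, rose in WT MG by log2 1.80 ± 0.248. Socs3, an inhibitor of JAK signalling, rose by 4.27 ± 0.267 in WT MG, 5.17 ± 0.643 in WT sdCAMs, 3.79 ± 0.288 in Ccr2-/- MG and 6.47 ± 0.223 in Ccr2-/- sdCAMs. The receptor gene Tlr4 fell by 1.30 ± 0.155 in Ccr2-/- sdCAMs and by 1.92 ± 0.268 in reporter sdCAMs, where Ifnar1 fell by 1.35 ± 0.261. Tlr4 was at 387, 363 and 411 and then 174, 136 and 162 in the former. After LPS, tdT+ sdCAMs held more Tlr4 and Ifngr1 than tdT- sdCAMs (log2 1.51 ± 0.293 and 1.58 ± 0.404), beside 475 of 12708 genes called higher. Ifngr1 was at 400.4, 1184 and 351 scaled CPM in tdT+ and 208.6, 240.3 and 198.7 in tdT- cells (mice 1, 5 and 7). The 1184 belonged to the tdT+ library of mouse 5 with high microglial markers, and MG of that mouse had 1406. Values without that library or with the conflicting columns exchanged are not given for these 2 genes. No gene of the list was called between BLZ945 and CTL in any population.

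Within single libraries the ISG counts were spread unevenly, and this share is of counts, not per gene length. Ifitm3 made up 49.5 to 80.9% of all member counts in WT CTL sdCAMs after LPS and 7.67 to 25.9% at rest. In Ccr2-/- sdCAMs its share was 20.8 to 23.1% in CTL and 25.5 to 29% in BLZ945 mice after LPS and 9.01 to 10% at rest. After LPS it was 50 to 56.5% in tdT- and 7.22 to 16.6% in tdT+ sdCAMs. In MG it was between 0.435 and 8.03%. A share of counts within a library does not depend on the scaling between libraries. Members whose windows hold an ISRE and those whose windows do not are given side by side. In Ccr2-/- MG 13 of 17 with and 14 of 19 without the element rose (median log2 1.89 and 1.76), and in WT MG 6 of 17 and 10 of 19 (0.98 and 1.02). In Ccr2-/- sdCAMs 11 and 12 rose (1.77 and 1.30), and in WT sdCAMs 2 and 3 (1.49 and 0.35).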

How the data were processed

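Bulk RNA-seq libraries from sorted MG and sdCAMs (3 per group, 54 in all) were analysed from the deposited counts. Per the labels and methods, the authors amplified cDNA with a SMARTer kit, prepared Nextera XT libraries, sequenced 50-cycle single reads and, with tools named in the submitters' processing notes, demultiplexed with bcl2fastq 2.20, aligned with STAR 2.7.11a and counted with featureCounts 2.0.8. The deposited values are whole-number counts per gene symbol without normalization. The strand setting is not given in the sources used here, and 2 genome builds are named, so no coordinates were attached to the counts. Without molecular identifiers, amplification duplicates stay in the counts, and floors cover counting error only.

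The members, lists and tests were chosen with earlier results of these data known. Each comparison was fitted in R 4.3.3 with edgeR 4.0.16 (filterByExpr, TMM, quasi-likelihood F-test, two-sided) over all genes passing the filter, with Benjamini-Hochberg adjustment. Calls required both adjusted p < 0.05 and an absolute log2 change above 1. DESeq2 1.42.0, other scalings, filters, single libraries left out and blocks were alternatives. MG and sdCAM libraries with the same number came from 1 animal by the labels. Their correlations of deviations from the group means were -0.0123 to 0.201 over 9 WT pairs, -0.131 to 0.333 over 9 Ccr2-/- pairs and -0.0559 to 0.206 over 18 reporter pairs. Reporter tdT+ and tdT- counts were summed per animal for the LPS comparison. The module level used a pseudocount of 1 CPM. Replicates were separate animals. No 2 libraries were identical, and the chi-square per degree of freedom between replicates was at least 7.49. Named genes were 12 core members, given singly for LPS in WT and Ccr2-/- mice and as a range elsewhere, and up to 5 called members in each direction with the smallest p. Other named members were chosen after their values were seen. The fits were tested on simulated data.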

Additional observations from a re-analysis of the deposited data

Results flagged for a closer look

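The change after LPS differed between sdCAMs and MG by a test of the difference itself in 12 instances (interaction, edgeR quasi-likelihood test, adjusted over all genes). In WT mice the log2 change of Isg20 was larger in sdCAMs by 4.73 ± 1.05 (SE, adjusted p = 0.034), and the differences for Slfn5 and Ifi207 were -2.58 ± 0.526 (adjusted p = 0.0242) and -2.98 ± 0.662 (adjusted p = 0.034). In Ccr2-/- mice the differences were all negative: Ifi207 -4.81, Ifi204 -3.69, Slfn5 -2.83, Oasl2 -2.05, Ifitm3 -1.73, Rtp4 -1.48, Eif2ak2 -1.41, Sp100 -1.36 and Bst2 -1.24, with adjusted p between 6.48e-07 (Ifi207) and 0.0432 (Eif2ak2). Ifi207 and Slfn5 were the members called in both genotypes.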

How the results depend on the processing

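The lowest totals were in WT and reporter sdCAMs. For the LPS comparisons the common biological coefficient of variation in edgeR was 0.81 in reporter MG, 0.7 in WT sdCAMs and 0.559 in reporter sdCAMs, against 0.257 in WT MG, and 3 libraries a group limit every count. Numbers of called members follow. Counts or shares over all genes stand with the results above for DESeq2, the mark and library-total scaling. DESeq2 called 16 for LPS in WT sdCAMs, 6 for LPS in reporter MG, 4 for BLZ945 in Ccr2-/- sdCAMs, 5 for the cell type interaction in WT, 2 for the genotype interaction in sdCAMs and 1 for tdT after PBS. For LPS in WT sdCAMs, where edgeR called 7, the mark as a covariate gave 14, and marked libraries alone, chosen after seeing the data, gave 12. Library-total scaling, chosen after seeing the data, gave 1 for BLZ945 in WT sdCAMs, 13 for the cell type interaction in WT, 2 for genotype in resting sdCAMs and 15 for tdT after LPS, and it turned Rtp4 between sdCAMs and MG after LPS in WT to -0.13. It also moved 6 of 21 module level differences, among them LPS in WT sdCAMs (1.27 to -0.0127) and tdT after LPS (-0.555 to 0.462). Exchanging the conflicting reporter columns gave 7 for LPS in reporter sdCAMs and 0 for tdT after LPS, and 0 for the latter with the replicate block as well, a pairing of choices added after seeing the data. The cause of these shifts was not tested. With the mouse as a replicate block, the counts were 20 and 31 for sdCAMs against MG at rest in WT and Ccr2-/- mice and 8 for tdT after LPS, and no count moved by over 1.5 times.

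Leaving out 1 library at a time gave 14 to 29 for LPS in WT MG, 2 to 4 in WT sdCAMs, 37 to 39 in Ccr2-/- MG, 30 to 35 in Ccr2-/- sdCAMs, 0 to 3 in reporter MG and 6 to 16 in reporter sdCAMs. For BLZ945 it gave 0 to 1 in WT MG, 0 to 5 in WT sdCAMs and 0 in both Ccr2-/- populations. For sdCAMs against MG it gave 12 to 26 at rest and 20 to 26 after LPS in WT, 30 to 35 and 26 to 32 in Ccr2-/- mice, and 0 to 3 and 6 to 9 for the interactions. For genotype it gave 2 to 5 in MG, 1 to 5 in sdCAMs and 0 for both interactions, and for tdT 0 after PBS and 5 to 8 after LPS. Of 140 called results of single genes, 641 of 702 alternative values kept the call, 60 lost it and 1 reversed. With a library left out 745 of 906 kept it and 161 lost it.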
